A study of Mus musculus with 2 samples.

Results

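Genes of cholinergic transmission were followed in hippocampal RNA of mice given cerium chloride (CeCl3), a salt of a lanthanide metal, and of control mice. The genes were Chat, Slc5a7, Slc18a3, Ache, Chrna3, Chrna4, Chrna5, Chrna7, Chrnb2 and Chrm1, and every array probe annotated with 1 of these symbols alone was used. All 10 genes had at least 1 probe, 22 probes in all, of 34885 probes on the array that carry a single gene symbol. Expression was measured once per group, on 1 Illumina bead array for CeCl3 and 1 for control.

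The CeCl3 array held hippocampal RNA from mice of the outbred ICR stock given CeCl3 by gavage daily for 90 days, and the control array RNA of ICR mice given purified water over the same time. The label of the CeCl3 sample names the doses 0.5, 1 and 2 mg per kg of body weight together, so the dose behind the array is unknown. Both samples are labelled male with an age of 4 weeks, which cannot be the age at sampling after 90 days of dosing, and the number of mice behind each array, out of the 75 in a group, is unknown. Fewer cells of a type and less RNA per cell cannot be told apart in such bulk samples. With 1 array per group there was no replicate check, no test across animals was possible and no p-value is given for a difference. The 95% intervals printed below cover the error between beads of 1 array, and animal-to-animal spread is not in them.

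A probe was called detected at a deposited detection p-value under 0.01. By this measure the CeCl3 array had 17433 detected probes out of 45281, and the control array had 16434. The labels did not match the arrays in 1 respect. All 4 probes of Xist, the RNA that silences an X chromosome in female cells, were detected on the control array, where the brightest had a signal of 834, and 0 of 4 were detected on the CeCl3 array, where the brightest had 5.28. The Y-linked gene Eif2s3y was detected by 1 of its 2 probes on the CeCl3 array and by 0 on the control array. Its highest signal was dim, at 54.4 in CeCl3 RNA and 20.1 in control RNA. The Y-linked genes Uty (4 probes) and Kdm5d (2 probes) were detected on neither array. Sex and treatment therefore cannot be told apart in any comparison below. The array codes in the file headers differ in their digits, and the labels do not say whether this means different chips. If it does, chip and treatment cannot be told apart either. Of 12 marker genes of hippocampal neurons 10 had a named probe and 8 were detected, on both arrays each, with a median log2 difference of 0.01 between the CeCl3 and the control array. Markers of other brain regions were detected as well and are given beside the cholinergic genes further on.

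Cholinergic neurons make acetylcholine from choline and acetyl-CoA, load it into vesicles and release it onto nicotinic receptors, which are ion channels built of several subunits, and muscarinic receptors, which couple to G proteins. Acetylcholinesterase splits the released transmitter and the choline is taken up again. The hippocampus receives most of its cholinergic fibres from the medial septum and the diagonal band of the basal forebrain, whose cell bodies lie outside it, and this input is known for its part in attention, theta rhythm and memory.

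Of the 10 genes, 8 had a detected probe, 6 of them on both arrays and 2 on the control array alone. The transporters Slc5a7 and Slc18a3 were lower on the CeCl3 array by more than bead error. The nicotinic subunits Chrna3 and Chrna5 were detected, at the cut of 0.01, on the control array alone. Chat, Ache, Chrna4 and Chrnb2 differed by no more than bead error on their brightest probes, and no probe of Chrna7 or Chrm1 was detected on either array. The sequences before the starts of Slc5a7, Slc18a3, Chrna3 and Chrna5 are shown because these genes had bead intervals below 0. That of Chat is shown because the Slc18a3 gene lies wholly inside the Chat gene, so that the enzyme and the vesicular transporter share a locus. The RefSeq starts used here differ between them. The sequences are the 250 bases before each RefSeq start in the assembly GRCm38.p6, written 5′ to 3′ on the strand of the gene. The array files name no build, so the coordinates belong to RefSeq and not to the probes. Chrna5 has 2 such starts. Capitals mark TGACG, the core of the cAMP response element, and GGGCGG, the GC box bound by Sp1-type factors, on either strand.
Slc5a7, chr17:54299035-54299284, minus strand: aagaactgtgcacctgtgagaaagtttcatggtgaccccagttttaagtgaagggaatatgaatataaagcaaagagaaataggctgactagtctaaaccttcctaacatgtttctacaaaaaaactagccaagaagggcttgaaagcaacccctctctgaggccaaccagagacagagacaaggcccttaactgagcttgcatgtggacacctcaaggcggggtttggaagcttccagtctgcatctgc
Slc18a3, chr14:32464851-32465100, minus strand: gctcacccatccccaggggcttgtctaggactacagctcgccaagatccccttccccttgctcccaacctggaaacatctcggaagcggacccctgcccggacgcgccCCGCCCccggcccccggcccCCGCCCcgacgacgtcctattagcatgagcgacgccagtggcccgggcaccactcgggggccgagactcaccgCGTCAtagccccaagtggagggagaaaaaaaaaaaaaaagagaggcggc
Chat, chr14:32465910-32466159, minus strand: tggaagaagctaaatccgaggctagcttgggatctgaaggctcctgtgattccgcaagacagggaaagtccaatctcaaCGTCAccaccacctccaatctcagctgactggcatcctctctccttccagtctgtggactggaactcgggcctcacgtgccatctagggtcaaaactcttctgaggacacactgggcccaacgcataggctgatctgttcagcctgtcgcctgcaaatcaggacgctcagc
Chrna3, chr9:55026563-55026812, minus strand: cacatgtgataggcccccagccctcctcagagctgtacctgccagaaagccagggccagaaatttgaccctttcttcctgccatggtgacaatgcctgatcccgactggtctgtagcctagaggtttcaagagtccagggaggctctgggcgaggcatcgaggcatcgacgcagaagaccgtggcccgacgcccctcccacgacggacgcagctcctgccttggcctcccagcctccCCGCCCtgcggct
Chrna5, upstream start, chr9:54980630-54980879, plus strand: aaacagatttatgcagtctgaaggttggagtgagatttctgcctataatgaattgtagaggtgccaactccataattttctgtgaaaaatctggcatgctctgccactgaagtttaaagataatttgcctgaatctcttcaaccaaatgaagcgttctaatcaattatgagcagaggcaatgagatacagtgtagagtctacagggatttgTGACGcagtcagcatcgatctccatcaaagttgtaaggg
Chrna5, downstream start, chr9:54981238-54981487, plus strand: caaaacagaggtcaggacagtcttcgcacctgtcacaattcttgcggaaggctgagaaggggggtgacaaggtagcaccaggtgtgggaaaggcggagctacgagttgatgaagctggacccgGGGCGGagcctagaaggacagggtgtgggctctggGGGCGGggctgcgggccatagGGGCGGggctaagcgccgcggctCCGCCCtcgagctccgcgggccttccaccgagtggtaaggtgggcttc

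The windows share few of the searched letters. TGACG, which 17.8% of all 32851 windows of this length in the RefSeq table hold, occurred once in Slc18a3, once in Chat, once before the upstream start of Chrna5, once in Chrnb2 (not shown) and 0 times in Slc5a7 and Chrna3. Among the windows shown, GGGCGG, held by 32.7% of all windows, occurred 2 times in Slc18a3, once in Chrna3, 4 times before the downstream start of Chrna5 and 0 times in Slc5a7 and Chat. The TATA box letters TATAAA (12.4% of windows) were found once in Slc5a7 and in no other window of the 9 listed genes with a table entry. The E-box CACGTG (6.02%) occurred once each in Chat, Ache and Chrna7, and the Egr site GCGNGGGCG (4.7%), which can overlap a GC box, 2 times in Ache and once in Chrna7. The AP-1 site TGANTCA (6.75%) and the full response element TGACGTCA (1.55%), which contains TGACG, occurred in 0 of the 10 windows of these genes. All motifs were searched on both strands, and a match or its absence describes these windows alone.

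Synthesis, uptake and vesicle loading come first in the pathway. Slc5a7 encodes the high-affinity choline transporter, which returns choline to the nerve ending and limits the rate of synthesis. Its 1 probe had a deposited signal of 182 ± 14.4 in CeCl3 RNA and 332 ± 34.2 in control RNA (SE over 44 and 50 beads). The CeCl3 signal was 0.546 of the control signal, and after background correction the log2 difference was -0.83 with a bead interval of -1.18 to -0.48. Slc18a3 encodes the vesicular acetylcholine transporter, which packs the transmitter into vesicles. Its 1 probe had a signal of 120 ± 11.2 in CeCl3 RNA and 186 ± 15.3 in control RNA (SE over 42 and 65 beads). The log2 difference was -0.58 (-0.91 to -0.26). For both transporters the CeCl3 signal lay clear of the control signal by more than the sum of their standard errors. Among the 9473 named genes detected on both arrays, 5.70% had a log2 difference of -0.5 or lower and 13.8% had a bead interval below 0.

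Chat encodes choline acetyltransferase, the enzyme that makes acetylcholine and the defining marker of cholinergic neurons. On its brightest probe the signal was 503 ± 35.2 in CeCl3 RNA and 577 ± 51.2 in control RNA, a log2 difference of -0.19 (-0.51 to 0.12). A second, dimmer probe had 75.8 ± 13.6 in CeCl3 RNA and 98 ± 22.6 in control RNA, a log2 difference of -0.32 (-1.06 to 0.41), and another was detected on neither array. Both detected Chat probes were lower on the CeCl3 array, and both bead intervals held 0. The difference of Slc5a7 was lower than that of Chat by more than bead error, at -0.63 (-1.10 to -0.16) between their log2 differences. For Slc18a3, which shares the locus with Chat, the corresponding value was -0.39 (-0.84 to 0.06), so that the bead interval held 0. Slc5a7 and Slc18a3 differed from each other by -0.24 (-0.72 to 0.23).

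**Figure D1:**
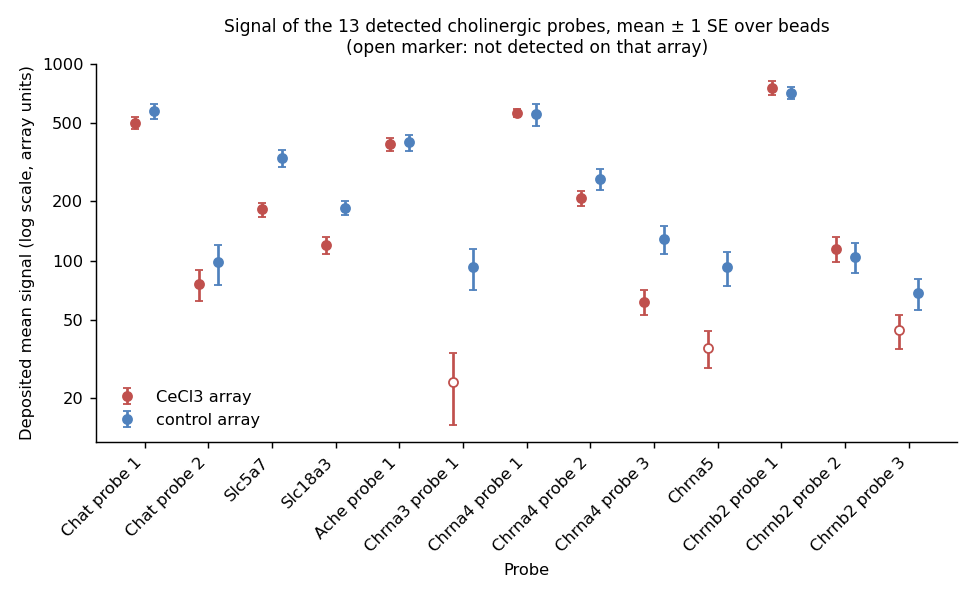
Deposited mean signal of the 13 detected cholinergic probes on a log axis, with bars of 1 standard error over beads, on the CeCl3 array (red) and the control array (blue); open markers are values not detected on that array. Slc5a7 (182 in CeCl3 RNA and 332 in control RNA) and Slc18a3 (120 and 186) stand apart by more than their bars, while the brightest probes of Ache, Chrna4 and Chrnb2 lie nearly level.

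Ache encodes acetylcholinesterase, which ends the signal in the synaptic cleft. Its RefSeq probe had a signal of 390 ± 28.8 in CeCl3 RNA and 399 ± 37.6 in control RNA (SE over 30 beads each). The arrays overlapped within 1 standard error, with a log2 difference of -0.03 (-0.36 to 0.30). A second Ache probe, designed on a cDNA clone, was detected on neither array. The transporters differed from Ache by more than bead error, by -0.80 (-1.28 to -0.32) for Slc5a7 and by -0.55 (-1.02 to -0.09) for Slc18a3 between the log2 differences.

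The nicotinic subunits divided by detection. Chrna4 and Chrnb2 encode the alpha and beta subunits of the main high-affinity nicotine-binding receptor of the brain. The brightest Chrnb2 probe had a signal of 756 ± 58 in CeCl3 RNA and 710 ± 48.7 in control RNA, a log2 difference of 0.09 (-0.20 to 0.37). A second probe had 115 ± 16.6 in CeCl3 RNA and 105 ± 18.5 in control RNA, a log2 difference of 0.11 (-0.47 to 0.69). Both intervals held 0. Another probe, detected on the control array alone, had 44.4 ± 8.68 in CeCl3 RNA and 68.6 ± 12.2 in control RNA and was at least 1.39-fold lower, although its bead interval (-1.11 to 0.09) held 0. Each such bound was taken on the background-corrected scale with its offset of 16. It sets the array that detected the probe over the higher of the probe's value and the lowest detected value on the other array, and it leaves out bead error. The fourth probe, designed on a cDNA clone, was detected on neither array. It had 42.2 in CeCl3 RNA (detection p-value 0.0128) and 13.5 in control RNA, a log2 difference of 0.78 (0.25 to 1.31).

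The 3 probes of Chrna4 disagreed. The brightest had a signal of 560 ± 26.1 in CeCl3 RNA and 556 ± 72.1 in control RNA, a log2 difference of 0.01 (-0.37 to 0.39). The middle probe had 207 ± 18 in CeCl3 RNA and 261 ± 32.3 in control RNA, a log2 difference of -0.31 (-0.72 to 0.10). The dimmest had 62 ± 9.17 in CeCl3 RNA and 129 ± 21.2 in control RNA, a log2 difference of -0.93 (-1.48 to -0.38). All 3 were designed on the same RefSeq transcript and all were detected on both arrays, yet the dimmest differed from the brightest by -0.94 (-1.61 to -0.27), more than bead error. With the mean of the probes in place of the brightest, the log2 difference of Chrna4 was -0.41 and that of Chrnb2 -0.10, so neither gene has a settled direction.

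Chrna3 and Chrna5 encode nicotinic subunits that assemble together in ganglia and in the medial habenula, Chrna5 as an accessory subunit. The brighter Chrna3 probe had a signal of 24.3 ± 9.67 on the CeCl3 array, not detected there (detection p-value 0.0502), and 92.8 ± 22 on the control array (SE over 30 and 36 beads). In CeCl3 RNA it was at least 1.80-fold lower with bead error left out, and the measured log2 difference was -1.43 (-2.23 to -0.64). The bead interval also holds differences smaller than that bound. The second Chrna3 probe was detected on neither array, with signals of -1.51 in CeCl3 RNA and -10.6 in control RNA, where values below 0 are signals under the subtracted background. The 1 probe of Chrna5 had 36.2 ± 7.8 on the CeCl3 array, not detected there (detection p-value 0.0192, so detected at a cut of 0.05), and 92.7 ± 18.2 on the control array (SE over 19 and 45 beads). It too was at least 1.80-fold lower with bead error left out. The measured log2 difference was -1.10 (-1.74 to -0.45), an interval that again holds smaller differences. Both genes were dim and entered through the control array alone, so a difference in this direction was built into their entry, as for all 654 probes of the array that were detected in control RNA alone, each of which was lower in CeCl3 RNA. Of 9801 genes detected on the control array by their brightest detected probe, 3.35% were not detected on the CeCl3 array by that probe. The 2 genes are neighbours whose RefSeq extents overlap by 1304 bases, and whether the probes lie in the shared stretch is not known here.

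**Figure D2:**
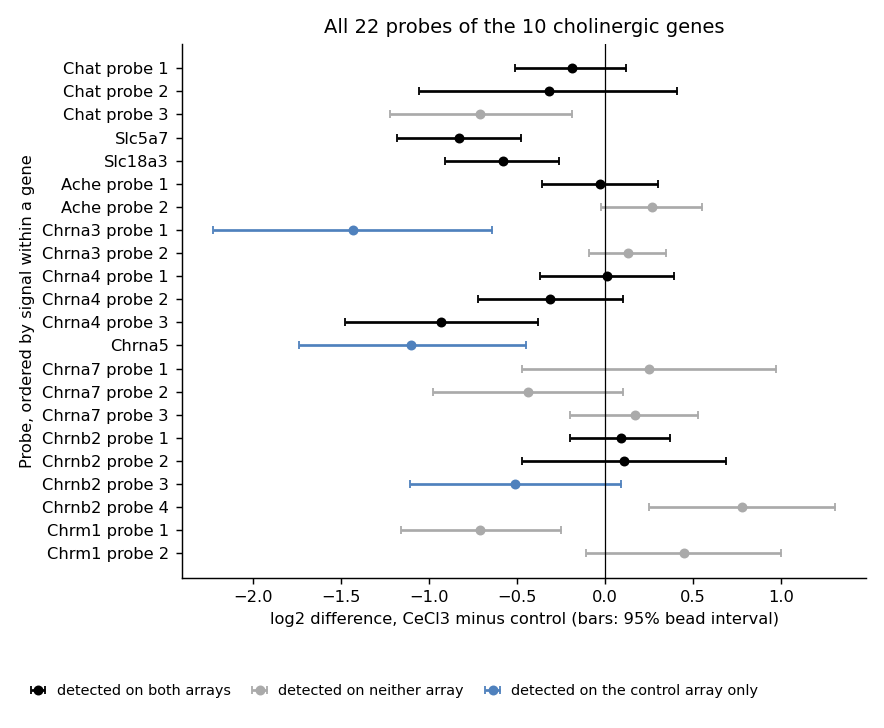
Log2 difference (CeCl3 minus control, horizontal axis) of all 22 probes of the 10 genes with 95% bead intervals, coloured by detection. The intervals of Slc5a7, Slc18a3, Chrna3 probe 1, Chrna4 probe 3 and Chrna5 lie below 0 among the 13 detected probes, and 0 of the 13 lie above it. Chrna3 probe 1 and Chrna5 were detected on the control array alone, which fixed their side.

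Chrna7, the subunit of the fast alpha-bungarotoxin-binding receptor of hippocampal interneurons and pyramidal cells, had 3 probes and 0 detected. Its signals ranged between 5.47 and 30.1 in CeCl3 RNA and between -4.1 and 24.4 in control RNA. Chrm1 encodes the M1 muscarinic receptor, the main muscarinic receptor of hippocampal pyramidal neurons. Its 2 probes had -3.91 and 19.7 in CeCl3 RNA and 26.8 and -0.0539 in control RNA, in opposite order, and neither was detected. These probes give no level for either receptor, which says nothing of how much of its RNA was present.

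Of the 13 detected probes 10 were detected on both arrays, and 3, those of Chrna3, Chrna5 and the dimmest detected Chrnb2 probe, on the control array alone. Among the 10, 7 lay below 0, where 54.9% of all 15780 probes detected on both arrays did. Bead intervals lay below 0 for 3 of the 10 (12.3% of those probes), Slc5a7, Slc18a3 and the dimmest Chrna4 probe, and above 0 for 0 of the 10 (10.3%). Over the 6 genes detected on both arrays, 4 had a log2 difference below 0, where 57.7% of all genes detected on both arrays did, and their median was -0.11, beside -0.05 for those genes. Bead intervals below 0 were found in 2 of the 6, beside the 13.8% given above, and above 0 in 0 of the 6, where 8.43% of those genes had one. A difference of 2-fold or more was reached by 0 of the 6, where 0.496% of genes were that much lower and 0.486% that much higher. With Chrna3 and Chrna5 counted too, the median of the 8 was -0.39, beside -0.04 over 10416 genes detected on at least 1 array, and 6 of the 8 were below 0, beside 55.8% of those genes. Both figures lean on the 2 genes that passed through the control array alone. Of these 10416 genes 1.95% were 2-fold lower and 2.77% 2-fold higher. Chrna3 and Chrna5 were past 2-fold on their measured values and under it on their bounds.

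**Figure D3:**
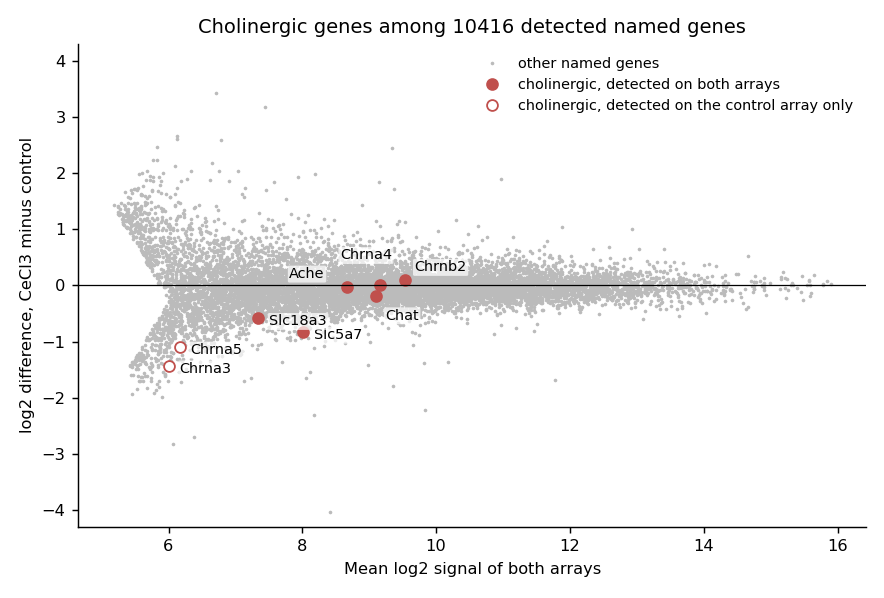
Log2 difference (CeCl3 minus control) against mean log2 signal for 10416 named genes (grey) and the 8 detected cholinergic genes (red; open where detected on the control array alone). Slc5a7 at -0.83 and Slc18a3 at -0.58 lie below the line at 0, Ache at -0.03 lies on it, and Chrna3 and Chrna5 lie on the dim arm at the lower left, where genes entered through 1 array.

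Other acetylcholine receptors were mostly not detected. Of 15 further receptor genes, chosen with earlier results of these data known, all had a probe and 5 were detected, 4 on both arrays and Chrna6 through the control array alone on its brightest probe, which fixed its direction. All 4 detected on both arrays had values below 0 on their brightest probes (median -0.60), where 57.7% of genes detected on both arrays did, and 2 had a bead interval below 0, beside 13.8%. Chrm2, the muscarinic receptor that acts as an autoreceptor on cholinergic endings, had a signal of 211 in CeCl3 RNA and 322 in control RNA, a log2 difference of -0.58 (-0.93 to -0.23). Chrm3, a muscarinic receptor coupled like M1, had 248 in CeCl3 RNA and 303 in control RNA, a log2 difference of -0.28 (-0.68 to 0.12). Chrna6, a nicotinic subunit of catecholamine neurons, had 32.5 in CeCl3 RNA and 117 in control RNA on the brighter probe, not detected on the CeCl3 array. On this probe it was at least 2.21-fold lower, with bead error left out. The other probe, detected on both arrays, lay at -0.09 (-0.82 to 0.65). Chrnb1, the beta subunit of the muscle receptor, lay at -1.10 (-1.77 to -0.43) on its brighter probe and at 0.07 (-0.66 to 0.79) on the other, detected on the CeCl3 array alone. Chrnb3, an accessory subunit, lay at -0.61 (-1.35 to 0.13) and at 0.29 (-0.51 to 1.09). In each of these 3 nicotinic genes the bead interval of the dimmer probe held 0.

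Genes that fold, tether or modulate the receptors and the esterase did not lie on 1 side of 0. Of 13 listed, 9 were detected, on both arrays each, 6 lower and 3 higher on their brightest probes, with a median of -0.09. Over all genes detected on both arrays 57.7% were lower, with a median of -0.05. Lynx1, a membrane-anchored brake on nicotinic receptors, had a signal of 6730 in CeCl3 RNA and 7500 in control RNA, a log2 difference of -0.16 (-0.37 to 0.04), and a dimmer probe lay at -0.45 (-1.07 to 0.17). The probes of Ric3, a chaperone of nicotinic receptors, disagreed. The brightest lay at -0.09 (-0.34 to 0.15), while another, with a signal of 427 in CeCl3 RNA and 271 in control RNA, lay at 0.63 (0.28 to 0.98). A dimmer Ric3 probe lay at -0.26 (-0.70 to 0.19), and the dimmest, detected on the CeCl3 array alone, at 0.32 (-1.08 to 1.71). The members of largest difference were Lypd6b at 0.64 (0.07 to 1.21), Prima1, the membrane anchor of acetylcholinesterase, at -0.54 (-1.09 to 0.01), Lypd6 at -0.30 (-0.58 to -0.03), with a second probe at -0.01 (-0.34 to 0.31), and Rapsn, the clustering protein of the muscle receptor, at 0.30 (-0.29 to 0.90). Supply of choline and acetyl-CoA likewise centred near 0, with 13 of 19 genes detected, 6 lower and 7 higher, and a median of 0.03. Among them the choline kinase genes Chka at 0.59 (-0.13 to 1.32) and Chkb at 0.32 (0.11 to 0.53) and the phosphatidylcholine synthesis gene Pcyt1b at 0.37 (0.07 to 0.66) were the highest, although the second probe of Pcyt1b lay at -0.38. Slc44a1, a choline transporter of lower affinity, lay at -0.34 (-0.63 to -0.06), -0.04 and 0.01 on its 3 probes. Acly, which makes cytosolic acetyl-CoA, lay at -0.12 (-0.32 to 0.08).

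Markers of regions that hold cholinergic neurons or nicotinic receptors were read beside these values. Of 9 markers of basal forebrain cholinergic neurons, 6 were detected, Chat, Slc5a7 and Slc18a3 among them. The summed signal of the 6 was 1653 in CeCl3 RNA and 1933 in control RNA, but it restates the values of these cholinergic genes in part. Apart from them, the signals in CeCl3 and control RNA were 208 and 176 for Ngfr, 105 and 114 for Lhx8 and 535 and 547 for Isl1. The bead intervals of the other 3 held 0, and that of Lhx8 also held the values of both transporters. The developmental regulators Isl1 and Lhx8 lay at -0.03 (-0.29 to 0.23) and -0.11 (-0.87 to 0.64), and the neurotrophin receptor Ngfr at 0.23 (-0.14 to 0.60). Gbx1 and Gal were not detected. Of 12 habenular markers 10 were detected, on both arrays each. Of these 9 were lower on their brightest probes, beside 57.7% of genes detected on both arrays, with a median of -0.25, beside -0.05. The dimmer probes went the other way wherever 1 was detected. They lay at 1.11 (0.47 to 1.76) for Nwd2, 0.29 for Chrnb3 and 0.17 for Calb2. That of Irx2, detected on the CeCl3 array alone, lay at 1.32 (0.83 to 1.81). The summed signal of the 10 was 10520 in CeCl3 RNA and 11386 in control RNA. The bead interval lay below 0 in 1 of the 10, the serotonin receptor Htr5b at -0.51 (-0.97 to -0.05). Tac2, the neurokinin B gene, lay at -0.48 (-0.97 to 0.01) and Gpr151, an orphan receptor of habenular neurons, at -0.30 (-0.66 to 0.07), while the defining genes Pou4f1 and Chrnb4 were not detected. Chrnb3, given above among the receptors, belongs to this list too. The part of habenular RNA in the values of Chrna3 and Chrna5 was not tested.

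Some hypothalamic and a few hindbrain markers were also detected. Of 8 hypothalamic markers 5 were detected, on both arrays each, 3 of them lower with bead intervals below 0, beside 13.8% of genes detected on both arrays, and the summed signal was 4339 in CeCl3 RNA and 5882 in control RNA. The oxytocin gene Oxt lay at -0.88 (-1.10 to -0.67), the melanin-concentrating hormone gene Pmch at -0.43 (-0.68 to -0.19) and the vasopressin gene Avp at -0.39 (-0.73 to -0.06). The hypocretin gene Hcrt lay at 0.04 (-0.30 to 0.39) and the thyrotropin-releasing hormone gene Trh at 0.10 (-0.27 to 0.47). Of 7 markers of brainstem motor neurons, which are cholinergic, 2 were detected. The intermediate filament gene Prph lay at -0.78 (-1.13 to -0.44) and the hindbrain gene Hoxa5 at -0.51 (-0.84 to -0.17), while Mnx1, Hoxb3, Hoxb4 and Hoxc4 were not detected. Their summed signal was 591 in CeCl3 RNA and 895 in control RNA. A log2 difference below 0 was found in 57.7% of all genes detected on both arrays. The striatal list (5 of 7 lower, median -0.06, summed signal 11728 in CeCl3 RNA and 12204 in control RNA), the thalamic list (5 of 6 lower, median -0.09, 20854 and 22564) and the choroid plexus list (3 of 6 lower, median 0.04, 15660 and 15149) lay closer to the median of all genes. Single members of them stood apart, the dopamine receptor gene Drd2 of the striatal list at -0.67 (-1.09 to -0.26) and Kl of the choroid plexus list at -0.40 (-0.77 to -0.03). Interneuron genes centred at -0.01 (4 of 8 lower). The part of tissue from outside the hippocampus in the values of Slc5a7 and Slc18a3 was not tested.

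**Figure D4:**
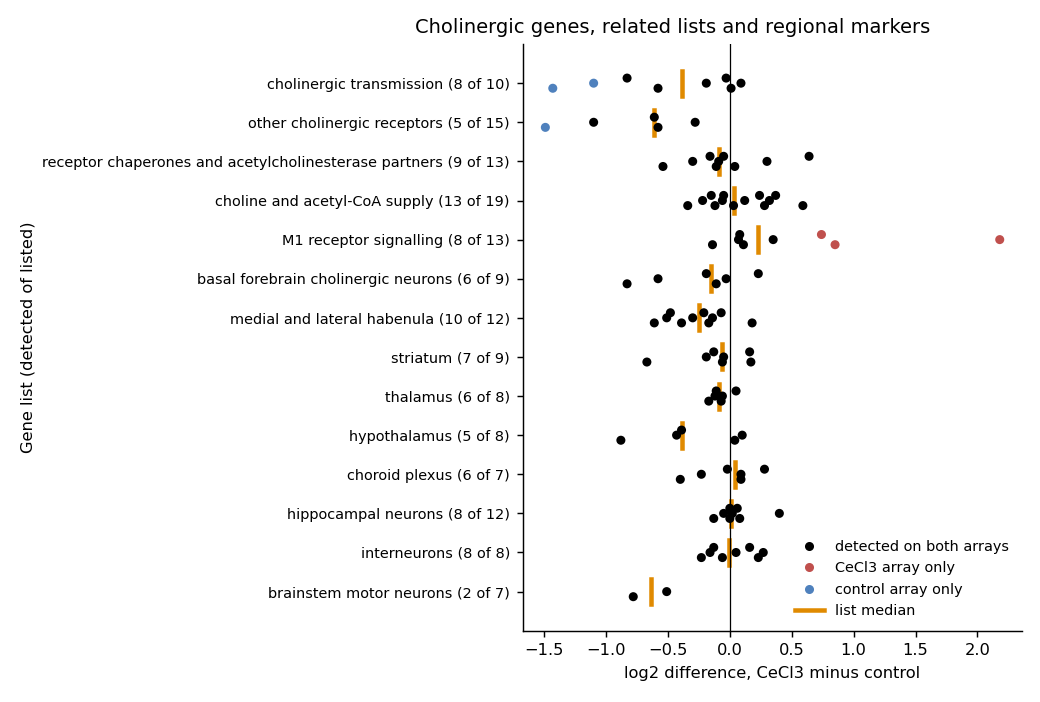
Log2 difference (CeCl3 minus control) of each detected gene of the cholinergic set, of 4 related lists and of 9 regional or cell type marker lists, with the list median as an orange bar. Medians lie at -0.39 for the cholinergic set, -0.61 for the other receptors, -0.25 for the habenula, -0.39 for the hypothalamus, -0.64 for the 2 brainstem markers and 0.01 for hippocampal neurons. The first of these medians counts Chrna3 and Chrna5 and the next Chrna6, which entered through the control array alone, and over genes detected on both arrays they are -0.11 and -0.60.

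The 4 genes with bead intervals below 0 kept a negative sign under each of 10 other ways of processing that gave a value. For Chrna3 and Chrna5 that sign was built into their entry through the control array alone, so its persistence adds nothing for them. Slc5a7 ranged from -0.88 to -0.60 and Slc18a3 from -0.67 to -0.38 over the 10. Chrna3 ranged from -1.95 to -0.93 and Chrna5 from -1.43 to -0.74 over 9, since neither is present when detection on both arrays is required. The smallest differences of Slc5a7 and Slc18a3 came from the series matrix as deposited, whose median over all genes was 0.18 rather than -0.04. In that table Chat lay at 0.01 and Ache at 0.28, so their signs turned and only 4 of the 8 detected genes were below 0. Such a check holds the 2 RNA samples fixed and says nothing of other animals.

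**Figure D5:**
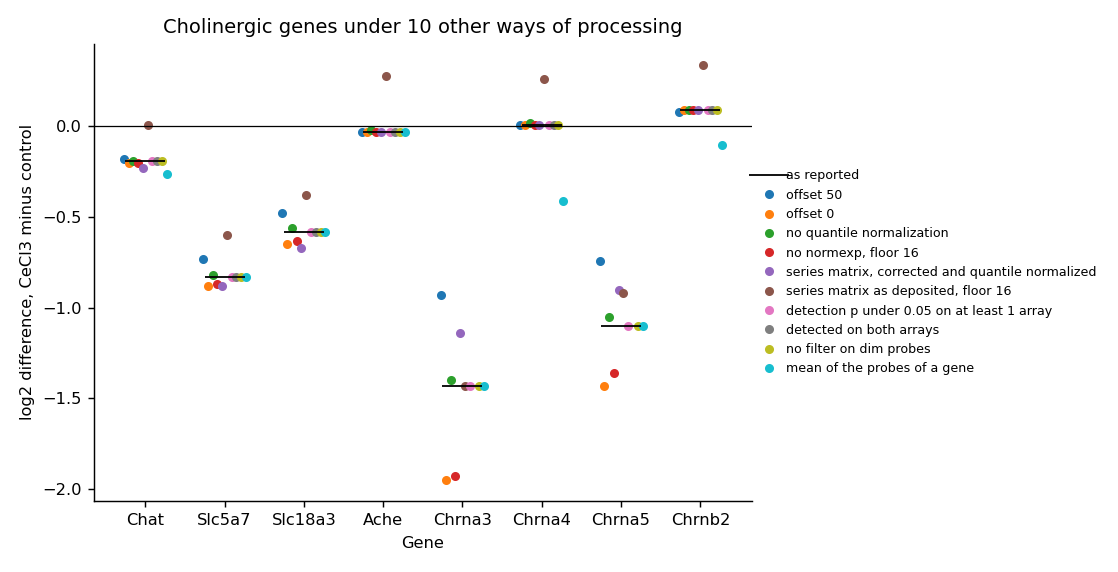
Log2 difference (CeCl3 minus control) of the 8 detected cholinergic genes as reported (black bar) and under 10 alternatives (coloured points). All points of Slc5a7, Slc18a3, Chrna3 and Chrna5 lie below 0, while Chat, Ache, Chrna4 and Chrnb2 each have a point on the other side of 0 from their reported value. Chrna3 and Chrna5 entered through the control array alone, which fixed their side.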

How the data were processed

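Hippocampal total RNA was amplified to biotin-labelled cRNA for Illumina bead arrays, per the labels' protocols, with BeadStudio named in the submitters' processing notes (settings not stated). For each probe and array the deposited table gives, per the file headers, an average signal intensity, its standard error over beads, the count of beads and a detection p-value. Deposited intensities are below 0 for 27.1% of probes on each array, so background had been subtracted, and their 75th percentiles are equal, so they appear normalized between arrays already. The series matrix deposited by the authors ranks probes alike on unequal scales (75th percentile 178 for CeCl3 and 139 for control) and was used as an alternative.

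Background was corrected with normexp (limma 3.58.1 in R 4.3.3, negative controls inferred from detection p-values, offset 16, which pulls dim differences towards 0), quantile normalized and put on the log2 scale. Bead standard errors were carried through the same transform, and intervals are 1.96 of them either way. A gene was represented by its brightest probe detected on at least 1 array. Groups came from the labels. Probe names came from the platform annotation, matched by gene number to RefSeq (GRCm38.p6), and promoter sequences from RefSeq. Alternatives changed the offset, normalization, background correction, source table, detection filter or probe rule. Leaving out normexp also put a floor of 16 in place of the offset, and the series matrix as deposited was used with that floor and with neither normexp nor quantile normalization. The steps were tested on simulated data. All listed genes are counted, and in each related list the 4 with the largest absolute difference are named, plus a few named for their role after their values were seen. Members, lists and alternatives were chosen with earlier results of these data known. With 2 arrays, no genes of like pattern were sought.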

Additional observations from a re-analysis of the deposited data

How the results depend on the processing

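With 1 array per group the number of arrays limits every value, and no replicate could be left out. No paired analysis was possible because the groups hold 1 sample each. The median over the detected cholinergic genes stayed below 0 under each of the 10 alternatives, from -0.50 with the mean of a gene's probes to -0.11 for the 6 genes detected on both arrays, so its size depends on Chrna3 and Chrna5. Of the single genes, Chrna4 alone left its bead interval, at -0.41 with the mean of its probes. Counts of genes past 2-fold (203 lower and 289 higher) varied more. They were 37 and 70 with an offset of 50, and 47 and 46 for genes detected on both arrays. The lower side was 332 with no offset, 318 without normexp, 320 with detection at a p-value under 0.05 and 325 with no filter, while the higher side was 399, 386, 315 and 315. The series matrix gave 137 and 188 when corrected in the same way, and 159 and 676 as deposited, a shift towards the higher side. In the other alternatives these counts stayed within 1.5 times. The causes of the shifts were not tested.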

Other observations

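Genes that act after the M1 receptor were detected in part. Of 13 listed, 8 were detected, 5 of them on both arrays and 3, Kcnq3, Kcnq5 and Trpc5, on the CeCl3 array alone, through which they passed the filter. Over the whole array 1653 probes were detected in CeCl3 RNA alone, beside 654 in control RNA alone. All but 48 of the 1653 were higher in CeCl3 RNA, so the direction of probes detected this way was nearly built in. Of the 5 detected on both arrays 4 were higher and 1 lower on their brightest probes, where 57.7% of all genes detected on both arrays were lower. Their median log2 difference was 0.08, beside -0.05 over those genes. The bead interval lay above 0 in 1 of the 5, where 8.43% of genes detected on both arrays had such an interval. That gene was Gnaq, the G protein alpha subunit that couples M1 to phospholipase C, at 0.35 (0.13 to 0.58) on its brightest probe, designed on a cDNA clone. Its RefSeq probe had a signal of 676 in CeCl3 RNA and 38.5 in control RNA, where it was not detected. This makes it at least 9.79-fold higher and sets the 2 probes of Gnaq far apart. Bead error is left out of this bound and of those below. The protein kinase C gene Prkca had a log2 difference of 0.11 (-0.05 to 0.26) for the bright probe, while the dim one gave -0.25 (-0.66 to 0.17). For Prkcb, of the same family, the brightest probe gave 0.07 (-0.20 to 0.34) and the dimmer ones -0.14 (-0.41 to 0.13) and -0.17 (-0.48 to 0.13). Gna11, a close relative of Gnaq, gave 0.08 (-0.24 to 0.41) and 0.28 (-0.03 to 0.58). Rgs4, which shortens G protein signals, lay at -0.14 (-0.35 to 0.07). Kcnq5, a subunit of the M-current potassium channel that muscarinic receptors close, had 200 in CeCl3 RNA and 33.9 in control RNA on a cDNA clone probe, at least 3.02-fold higher, while its RefSeq probe, also detected on the CeCl3 array alone, lay at 0.07 (-0.68 to 0.82). Kcnq3, another M-current subunit, was at least 1.46-fold higher, although its bead interval (-0.17 to 1.66) held 0. The cation channel gene Trpc5 lay at 0.85 (0.17 to 1.52) with no bound above 1. Plcb1 was not detected.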
